A study of Arabidopsis thaliana with 6 samples.

Results

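The comparison described here sets both microRNA overexpressors of the study together against their empty-vector control, and asks which transcripts moved on average over the microRNA plants. It uses all 6 arrays of the series: 4 microRNA arrays, made of 2 from Arabidopsis thaliana plants overexpressing miR164b and 2 from plants overexpressing miR172a (both Col-0), and 2 arrays from Columbia plants transformed with the empty pML_Bart plasmid. All RNA came from vegetative apices of plants aged 7 days and grown in short days. The labels do not say which promoter drove the microRNAs, whether each overexpressor was 1 transformant or several, or whether a group's arrays hold RNA of different plants. The p-values therefore cover only the variation between these arrays, part or all of which may be technical.

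Plant microRNAs are short RNAs that pair with messenger RNAs and lower their output by cleavage or by blocking translation. The miR164 family is known for acting on NAC-domain genes of organ boundaries, and miR172 on AP2-type genes that delay flowering. Neither microRNA is measured by these values, so every direction below rests on the labels. A transcript that moves alike in both overexpressors is not tied by this design to either microRNA, because each overexpressor differs from the control by its insert and any other difference between the plant stocks, and these cannot be told apart.

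Values are scaled intensities, the brightness of a probe set on a linear scale, and changes are differences of log2(intensity + 16). The combined change is the mean of both microRNA groups, at equal weight, minus vector. It was tested with limma over 22746 probe sets and counted as passed at a Benjamini-Hochberg adjusted p under 0.05. Because a large change in 1 overexpressor can carry an average, the line difference, miR164b minus miR172a, was tested in the same fit. It is given beside some of the combined changes, and those past the threshold in named genes are collected in a later section. A change is called shared here when the line difference is smaller in size than the combined change, which puts both overexpressors on the same side of vector. The rule does not require each overexpressor alone to pass against vector, and in some genes called shared only 1 of them did.

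In the combined comparison 574 probe sets passed (2.52% of those tested), 315 higher (1.38%) and 259 lower (1.14%). The median combined change of all probe sets was -0.03, and the smallest change that passed was 0.41 in size. Of the 574, 408 (71.1%) were shared changes, 208 higher and 200 lower, with a median size of 0.68 and a median line difference of 0.26. The overexpressors nevertheless differed past the threshold at 78 of the 408. The other 166 were changes with a line difference at least as large, and the larger change was in miR172a for 120 of them and in miR164b for 46. At 492 of the 574 the 4 microRNA arrays did not overlap the vector arrays, which held for 22.3% of all probe sets. Large falls were mostly shared: of 55 probe sets that fell by more than 1 on the log2 scale, 50 were, against 33 of 49 that rose by more than 1. The direct line difference, with a slightly larger median standard error (0.11 against 0.10), was past the threshold at 1623 probe sets (7.14%). Each overexpressor alone differed from vector at 1.79% (miR164b) and 5.87% (miR172a) of probe sets, and those comparisons share the vector arrays with the combined one. The number of calls rested on every array: it was 2 without vector array 1, 3 without vector array 2, 12 and 11 without miR164b array 1 or 2, and 110 and 108 without miR172a array 1 or 2. In the 76 called genes named below, the combined change without any 1 array was between 0.75 and 1.25 times the full value, with 0 changes of sign. These genes were chosen for passing on the same arrays, so their steady sizes are a description and not independent evidence.

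**Figure D1:**
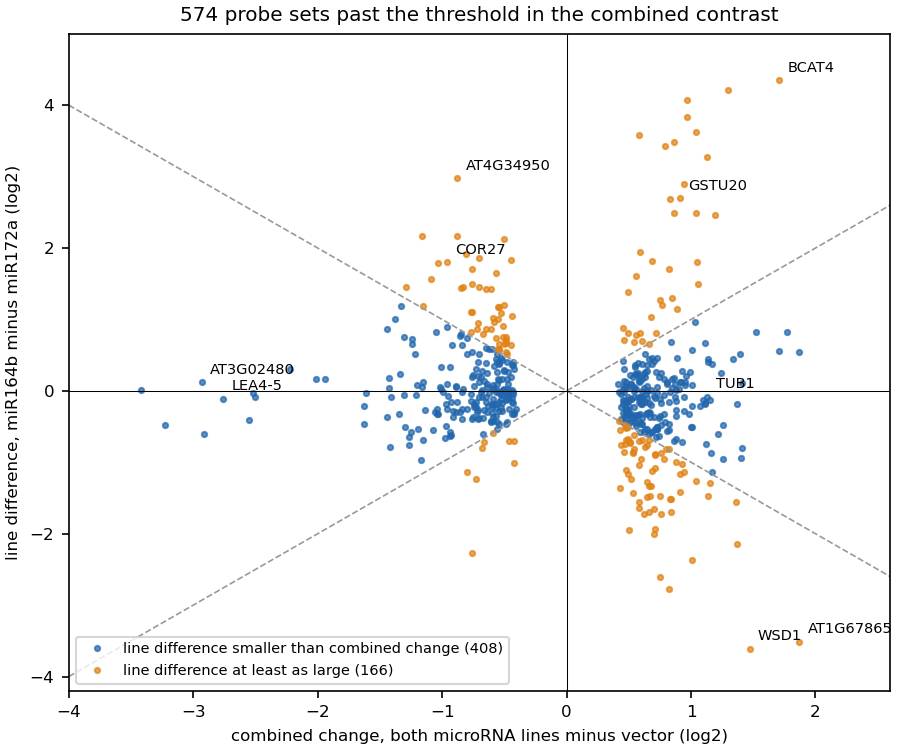
Each point is 1 of the 574 probe sets that passed in the combined comparison, with its combined change on the horizontal axis and the line difference on the vertical axis (both log2). Dashed lines mark a line difference equal in size to the combined change. The 408 shared changes lie between them around 0, with the falls reaching further than the rises, and the 166 others lie above and below.

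Correlations across probe sets were 0.991 to 0.994 within groups and 0.981 to 0.987 between them, and median intensities were 85.2 to 92.0. Of the control probe sets, 25S rRNA was high with empty vector (4070 and 4093) and low with miR164b (443 and 528), and it was 355 on miR172a array 1 and 3462 on miR172a array 2. The actin control gave 3'/5' ratios of 3.0 and 2.94 with empty vector, 1.96 and 2.11 with miR164b, and 2.25 and 3.05 with miR172a. On both measures miR172a array 2 was the 1 microRNA array near the vector values. The part of these control values in the combined changes was not tested.

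The list with the most falls was that of dehydration, abscisic acid and LEA genes. Late embryogenesis abundant (LEA) proteins and dehydrins are hydrophilic proteins that accumulate in maturing seeds and in tissue losing water, many under control of abscisic acid, and are thought to protect membranes and proteins. Of 18 measured genes of the dehydration, abscisic acid and LEA list, 7 fell and 0 rose (38.9%, against 0.944% of all named genes called lower and 1.88% called in either direction). The median change was -0.47, against -0.03 for all named genes. The list was drawn up with earlier results of these arrays known, so its share is a description and not independent evidence. LEA4-5 (AT5G06760), a group 4 LEA protein, read 158 and 137 with empty vector, 10.5 and 4.3 with miR164b, and 16.3 and 3.3 with miR172a. All 4 microRNA arrays were far below both vector arrays, and the combined change was -2.76 ± 0.23 (SE; adjusted p = 0.0098) with a line difference of -0.11 (adjusted p = 0.86).

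LTI30 (AT3G50970), a dehydrin induced by cold and drought, read 476 and 457 with empty vector, 192 and 189 with miR164b, and 150.7 and 167.1 with miR172a. It fell by 1.34 ± 0.08 (adjusted p = 0.0055), and its line difference of 0.24 was not past the threshold (adjusted p = 0.17). HIS1-3 (AT2G18050), the linker histone variant induced by drought, read 363 and 354 with empty vector, 113 and 103 with miR164b, and 167 and 191 with miR172a. It fell in both but was lower in miR164b than in miR172a (combined -1.27 ± 0.09, adjusted p = 0.0062; line difference -0.65, adjusted p = 0.022).

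The list also held 4 genes that the gene table gives by locus only. AT3G02480 read 307 and 364 with empty vector, 30.8 and 33.0 with miR164b, and 36.1 and 21.1 with miR172a, the largest combined fall of any named gene (-2.93 ± 0.16, adjusted p = 0.0045). AT2G37870 fell by 2.22 (adjusted p = 0.014), AT3G17520 by 1.63 (adjusted p = 0.0073) and AT5G53710 by 1.19 (adjusted p = 0.045). The microRNA arrays were all below the vector arrays at 11 of the 18 list members, where 22.3% of all probe sets did not overlap in either direction. The LEA genes AtLEA4-1 and LEA18 read in the same direction without passing (-0.65 and -0.66, adjusted p = 0.12 and 0.13). The cold-regulated genes COR47, COR15A and COR15B, of the same list, had values of 0.00, -0.22 and -0.01, and none passed (adjusted p = 0.98, 0.34 and 0.98). The number of falls in the list was 0 without either vector array or either miR164b array, 5 without either miR172a array, 3 with an offset of 1 and 5 with the microRNA arrays taken as 1 group of 4.

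**Figure D2:**
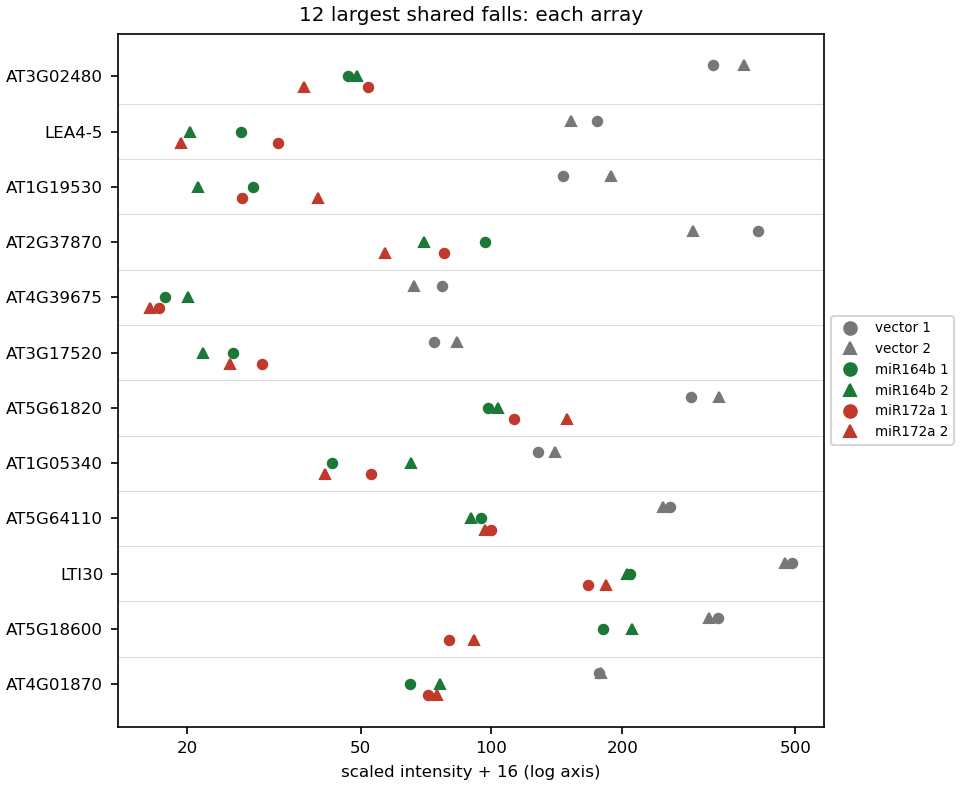
Each row is 1 of the 12 named genes with the largest shared falls, and each symbol is 1 array (scaled intensity + 16, log axis). Grey marks vector, green miR164b and red miR172a, with circles for array 1 and triangles for array 2. In every row all 4 microRNA symbols lie left of both vector symbols, which was a condition for choosing these genes.

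The 12 largest shared falls were taken from named genes whose microRNA arrays did not overlap the vector arrays. They were AT3G02480, LEA4-5, AT2G37870, AT3G17520 and LTI30 of the dehydration list and 7 others, AT1G19530, AT4G39675, AT5G61820, AT1G05340, AT5G64110, AT5G18600 and AT4G01870. AT1G19530 read 130 and 172 with empty vector and between 5.20 and 23.9 on the microRNA arrays (-2.55 ± 0.22, adjusted p = 0.0098). AT4G39675 read 61.1 and 50.4 with empty vector and at most 4.1 on the microRNA arrays (-2.01 ± 0.10, adjusted p = 0.0044). AT5G64110 read 241 and 232 with empty vector, 78.8 and 73.6 with miR164b, and 83.7 and 80.8 with miR172a (-1.41 ± 0.07, adjusted p = 0.0044). Of the 12, AT5G18600 was the 1 whose overexpressors differed past the threshold, with 164 and 195 with miR164b and 63.9 and 75.4 with miR172a against 316 and 301 in vector. For dim genes the size depends on the offset: LEA4-5 changed by -4.17 with an offset of 1, where its call was lost (adjusted p = 0.098), and by -1.54 with an offset of 64.

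All 12 calls were lost without either vector array. Without miR164b array 1 or 2 the calls kept were 2 and 1, and without either miR172a array they were 10.

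The 12 largest shared rises among named genes, taken under the same condition of no overlap, were 0.98 to 1.41, beside -2.93 to -1.31 for the falls. TUB1 (AT1G75780), a beta-tubulin of the microtubules, read 258 and 284 with empty vector, 580 and 606 with miR164b, and 594 and 664 with miR172a. It rose by 1.13 ± 0.09 (adjusted p = 0.0082), and the overexpressors were nearly equal (line difference -0.08, adjusted p = 0.69). scpl31 (AT1G11080), of the serine carboxypeptidase-like family, read 25.2 and 24.5 with empty vector and between 62.9 and 69.6 on the microRNA arrays (1.01 ± 0.07, adjusted p = 0.0062). Its relative scpl48 rose from 58.1 and 63.3 to between 113 and 137 (0.85 ± 0.08, adjusted p = 0.013). They were the 2 called members of 29 in that family, where 0.936% of all named genes were called higher. The family median was 0.03, with 13 members below 0.

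The other 10 of the 12 largest shared rises are given by locus only in the gene table. AT5G51890 read 114 and 105 with empty vector, 315 and 298 with miR164b, and 252 and 259 with miR172a (1.24 ± 0.07, adjusted p = 0.0060). AT5G12940 rose by 1.39, AT1G69730 by 1.26, AT1G04660 by 1.22 and AT3G46880 by 1.1, and AT2G23060, AT5G22390 and AT5G61660 by 1.01, 1.0 and 0.98. None of these 8 had a line difference past the threshold. AT5G22580 and AT3G45680, with the largest combined rises of the 12 (1.41 and 1.4), were higher in miR172a than in miR164b. AT5G22580 read 310 and 313 with empty vector, 596 and 692 with miR164b, and 1002 and 1274 with miR172a. The sizes of the dim genes rest on the offset, and AT1G04660, at 4.6 and 5.4 with empty vector, changed by 2.46 with an offset of 1 and by 0.50 with 64. All 12 calls were lost without either vector array or without miR164b array 1. In all, 1 was kept without miR164b array 2 and 8 without either miR172a array.

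**Figure D3:**
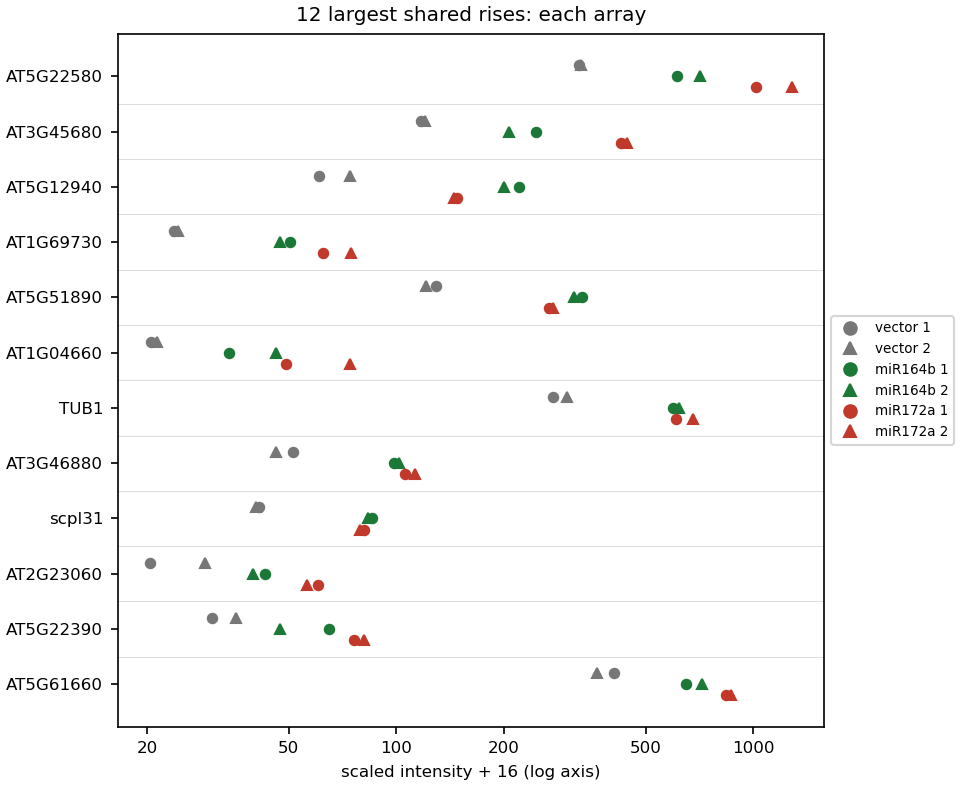
Each row is 1 of the 12 named genes with the largest shared rises, and each symbol is 1 array (scaled intensity + 16, log axis), coloured by group as above with circles for array 1 and triangles for array 2. All 4 microRNA symbols lie right of both vector symbols in each row, which was a condition for choosing these genes. In AT5G22580 and AT3G45680 the miR172a arrays lie further right than the miR164b arrays.

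Wall-loosening genes were the list with the most rises. Expansins loosen the wall without cutting it, xyloglucan endotransglucosylase/hydrolases (XTH) cut and rejoin the xyloglucan that ties cellulose fibres, and GH9 enzymes are endoglucanases that act on glucan chains of the wall. Of 29 measured members 7 rose and 0 fell (24.1% against 0.936% of named genes called higher), while the median change was only 0.08, so most members did not pass. As with the dehydration list, the members were chosen with earlier results of these arrays known, so the share is not independent evidence. GH9C2 (AT1G64390) had the smallest line difference of the 7, at 588 and 604 with empty vector, 1057 and 1089 with miR164b, and 1201 and 1080 with miR172a (0.87 ± 0.08, adjusted p = 0.011; line difference -0.09, adjusted p = 0.64). GH9B8 rose by 0.76 and EXPA15 by 0.48 (adjusted p = 0.045 and 0.040). In miR164b alone neither of them passed against vector (adjusted p = 0.15 and 0.12).

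EXPA4 (AT2G39700) read 305 and 301 with empty vector, 435 and 456 with miR164b, and 671 and 658 with miR172a, a shared rise that was larger in miR172a (0.81 ± 0.07, adjusted p = 0.0098; line difference -0.56, adjusted p = 0.018). XTH32 was ordered the same way, with 747 and 741 with empty vector, 1015 and 1045 with miR164b, and 1532 and 1460 with miR172a (0.73, adjusted p = 0.013). XTH19 and EXPA8 were not shared by the measure used here, since their rise lay mostly in miR164b: XTH19 read 24.5 and 17.3 with empty vector, 109 and 116 with miR164b, and 27.0 and 32.5 with miR172a. The number of rises in the list was 0 without any 1 of the vector and miR164b arrays, 2 without either miR172a array, 3 with an offset of 1 and 1 with the microRNA arrays as 1 group of 4.

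Outside that list, PMEPCRF (AT5G53370), a pectin methylesterase chosen after its values were seen, rose from 123 and 134 to 178 and 160 with miR164b and 271 and 261 with miR172a (0.66, adjusted p = 0.024). It was higher in miR172a than in miR164b (line difference -0.61, adjusted p = 0.023). In miR164b alone it did not pass against vector (adjusted p = 0.14). PME61 and ATPMEPCRB, pectin methylesterases of the pectin and peroxidase list, had values of 0.06 and -0.00, and neither passed. TBL36, TBL34 and TBL43 were the 3 called members, all higher, of 22 in the TRICHOME BIREFRINGENCE-LIKE family, whose characterised members add acetyl groups to wall polysaccharides. The family median was 0.10. TBL36 rose by 0.67, TBL34 by 0.55 and TBL43 by 0.50 (adjusted p = 0.034, 0.026 and 0.045). Among 20 families of at least 10 named genes with a common symbol stem, 9 held a call, and the calls in all 9 were rises, where 0.936% of all named genes were called higher. EXPA led with 3 of 10. The GH stem joins GH9 genes with GH3 genes of the auxin list, and its 2 calls of 19, GH9C2 and GH9B8, were GH9 genes. BZIP, TRM, GSTU and UGT had 1 each of 14, 15, 11 and 47, which for UGT is near that share. PRA1.F1, of a family of membrane-traffic proteins that bind small GTPases, rose from 79.1 and 81.8 to between 141 and 170 (0.82, adjusted p = 0.012) and was the 1 call among 11. All these calls were lost without either vector array.

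With each gene read at its brightest probe set, 31 of the shared changes belonged to genes with a symbol, 19 higher and 12 lower, and this group was chosen after its values had been seen. MCCA (AT1G03090), a subunit of methylcrotonyl-CoA carboxylase in leucine breakdown, read 403 and 403 with empty vector, 282 and 307 with miR164b, and 152 and 189 with miR172a (-0.80 ± 0.10, adjusted p = 0.027). It was lower in miR172a than in miR164b (line difference 0.74, adjusted p = 0.025). In miR164b alone it did not pass against vector (adjusted p = 0.15). PPDK (AT4G15530), which makes phosphoenolpyruvate from pyruvate, fell by 0.71, from 138 and 148 to between 68.0 and 103 (adjusted p = 0.024). PUB19 (AT1G60190), a U-box ubiquitin ligase of drought and abscisic acid responses, read 95.0 and 81.5 with empty vector and between 31.6 and 40.8 on the microRNA arrays (-1.01 ± 0.12, adjusted p = 0.020).

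ATL8, a RING-type ubiquitin ligase, fell by 0.92 (adjusted p = 0.030), and the transcription factor WRKY6, known for roles in senescence and defence, fell by 0.57 (adjusted p = 0.038). WRKY6 was the 1 call among 6 measured defence genes, where 1.88% of all named genes were called in either direction. Its call was lost in 10 of 13 alternatives. The mitochondrial gene nad4, a subunit of respiratory complex I, fell by 0.44 (adjusted p = 0.041), and in miR172a alone it did not pass against vector (adjusted p = 0.11). LSMT-L, JRG21 and LCR72 fell as well, at -0.64, -0.48 and -0.71. JRG21 was lower in miR164b than in miR172a (line difference -0.43, adjusted p = 0.038). In addition, 1 gene with a symbol had a shared fall only at the dimmer of its probe sets. GAT1_2.1 (AT1G15040), a glutamine amidotransferase, read 21.3 and 33.4 with empty vector and between 2.1 and 5.0 on the microRNA arrays at probe set 260741_at (-1.16 ± 0.14, adjusted p = 0.021). At the brighter probe set, 260743_at, all 6 arrays lay between 4.8 and 18.9 and the value was -0.16 (adjusted p = 0.73), so its probe sets disagree. The call at the dimmer one was lost when any 1 of the 6 arrays was left out.

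Among the rises with a symbol, ECS1 (AT1G31580) had the largest change not yet given, at 907 and 901 with empty vector, 1713 and 1854 with miR164b, and 1587 and 1698 with miR172a (0.91 ± 0.08, adjusted p = 0.0098). DRT100 (AT3G12610) rose from 308 and 379 to between 588 and 699 (0.86, adjusted p = 0.023). PMEAMT (AT1G48600), a methyltransferase on the route to phosphocholine, rose by 0.62 (adjusted p = 0.023), and bZIP58, a basic leucine-zipper protein, by 0.86 (adjusted p = 0.014). bZIP58 was higher in miR172a than in miR164b (line difference -0.70, adjusted p = 0.018). SAH7 and AAH, the allantoate amidohydrolase of purine nitrogen recycling, rose by 0.48 and 0.49 (adjusted p = 0.045 for both). These calls too were lost without either vector array.

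A different set of large combined changes was carried by 1 overexpressor. The line difference was past the threshold at 5.64% of all named genes, and at all 166 probe sets of this kind, which that same difference defines. BCAT4 (AT3G19710), an aminotransferase at the start of methionine-derived glucosinolate synthesis, had a combined change of 1.71 ± 0.08 (adjusted p = 0.0038). It read 39.6 and 34.1 with empty vector, 748 and 780 with miR164b, and only 21.8 and 22.5 with miR172a, so its miR172a arrays were below vector and the line difference was 4.35 (adjusted p = 1.3e-04). WSD1 (AT5G37300), a wax ester synthase, passed in the combined comparison with 1.47 ± 0.14 (adjusted p = 0.013). It read 22.8 and 16.2 with empty vector, 9.60 and 14.4 with miR164b, and 291 and 364 with miR172a. AT1G67865 behaved like it, with at most 13.1 on the vector and miR164b arrays and 290 and 324 with miR172a (combined 1.87, line difference -3.51).

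AT4G21650 and AT2G39850, the other 2 of the 5 largest such rises, were higher than vector on every microRNA array but much more so in miR172a. Among the 5 falls, COR27 (AT5G42900), a cold-regulated gene also under clock control, read 259 and 256 with empty vector, 250 and 243 with miR164b, and 55.7 and 63.5 with miR172a (combined -0.96, adjusted p = 0.0084). AT4G34950 read 390 and 396 with empty vector, 603 and 608 with miR164b, and 55.7 and 71.0 with miR172a, which puts the overexpressors on opposite sides of vector. Opposite sides were found at 61 of the 166 probe sets of this kind. AT5G62210, AT2G23910 and AT4G33550 were the other falls, with combined changes of -1.29, -1.16 and -1.15. With the 4 microRNA arrays taken as 1 group of 4, 0 of these 10 genes passed. That fit counts the line difference as spread, and these genes were chosen for a large one, so the loss follows from the choice. Their calls also rested on both vector arrays.

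**Figure D4:**
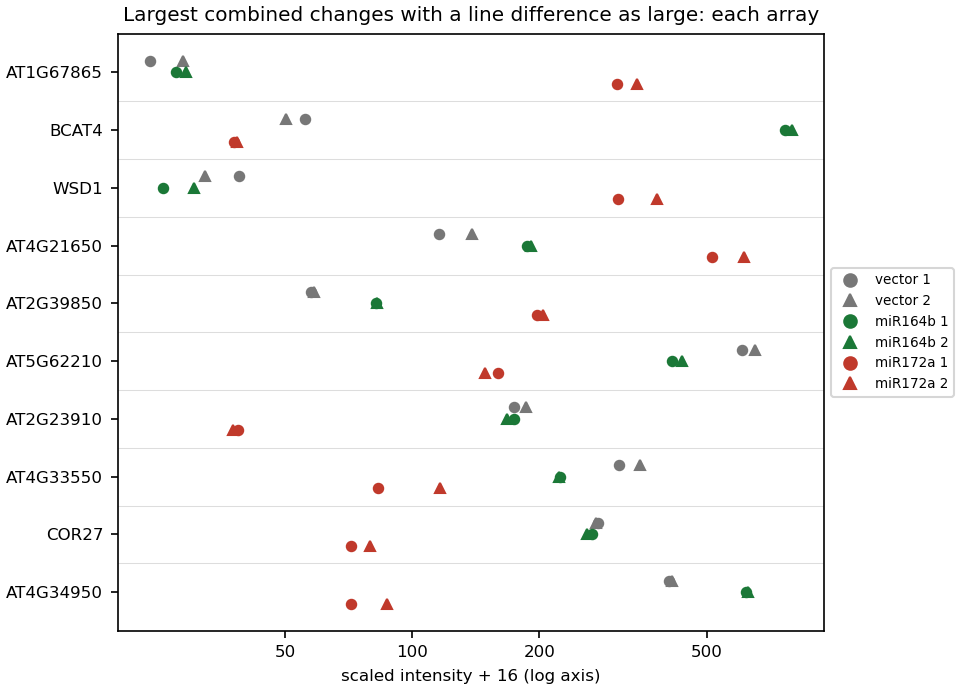
Each row is 1 of the 5 rises (AT1G67865 to AT2G39850) and 5 falls (AT5G62210 to AT4G34950) with the largest combined changes among genes whose line difference was at least as large. Symbols are single arrays (scaled intensity + 16, log axis), coloured as above, and in BCAT4 and AT4G34950 the vector arrays lie between the overexpressors.

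The overexpressors also differed at most called members of several lists, whose counts stand beside 0.936% of all named genes called higher and 0.944% called lower. All 4 called members of 9 glucosinolate genes, BCAT4, GSTU20, UGT74B1 and AT2G31790, were rises in the combined comparison, and all 4 were higher in miR164b than in miR172a by 1.38 or more. GSTU20, a glutathione transferase, read 581 and 603 with empty vector, 2718 and 3087 with miR164b, and 431 and 435 with miR172a. The median change of the list was 0.47. Of 10 measured genes of the flavonoid and anthocyanin list 4 fell, and for all 4 the miR172a arrays were the lower. DFR, which reduces dihydroflavonols, read 284 and 259 with empty vector, 330 and 314 with miR164b, and 72.7 and 81.3 with miR172a (combined -0.70, adjusted p = 0.023). UF3GT and AT5MAT, a glycosyltransferase and a malonyltransferase of anthocyanins, fell by 0.81 and 0.76. DFR, UF3GT and AT5MAT were not shared changes by the measure used here. The fourth, AT5G18600, was a shared fall described above. It is given by locus only in the gene table, and its part in this pathway cannot be read from these values. Both called cold and clock genes of 6, COR27 and AT4G33980, fell, and both called heat shock and chaperone genes of 8 rose. These were AT5G48570 and Hsp70-2, of the chaperones that bind unfolded proteins, with line differences of -2.01 and -0.72, toward miR172a. RR16, a cytokinin-induced response regulator, was the 1 call among 4 cytokinin genes and fell by 0.65 (adjusted p = 0.030), with a line difference of 0.87. Of 10 pectin and peroxidase genes 2 rose, AT5G62360 and the shared rise AT5G51890, of 16 sugar response genes AT1G19450 rose by 1.14, and of 17 genes of reactive oxygen and detoxification GSTU20 rose. Without either vector array 0 members of these lists passed.

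**Figure D5:**
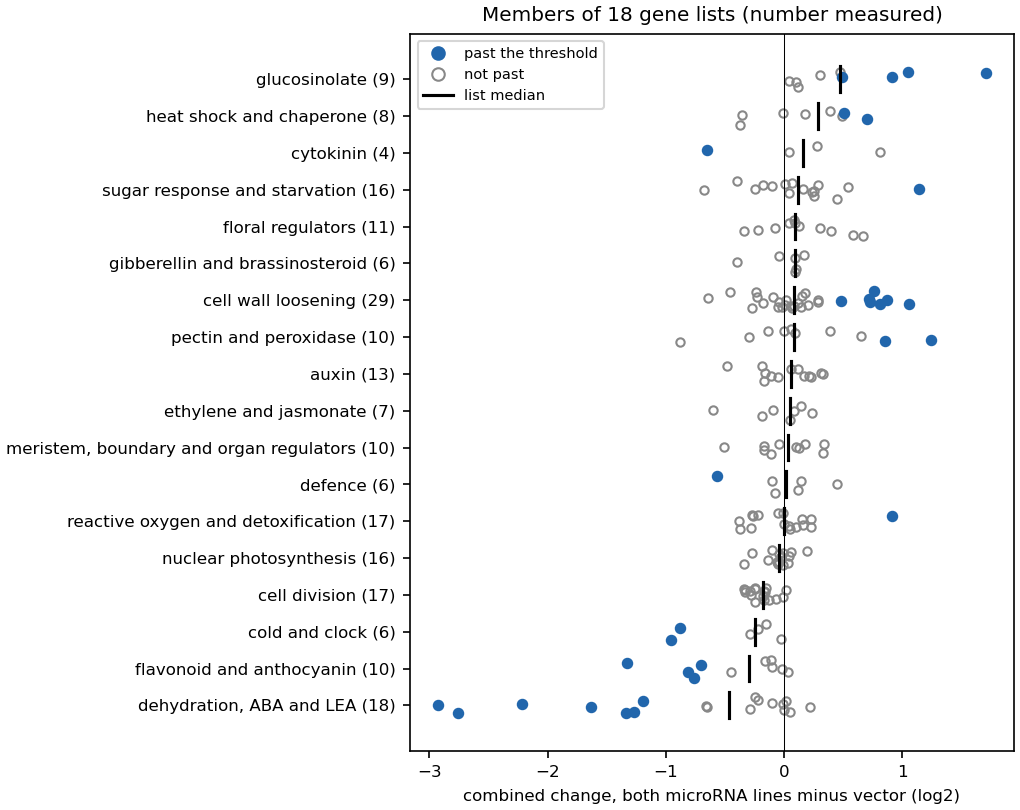
Each circle is 1 measured member of 1 of 18 gene lists, placed by its combined change (log2), filled where it passed the threshold, and the black bar is the list median. Filled circles reach furthest left in the dehydration, abscisic acid and LEA list and furthest right in the glucosinolate list, and 7 lists hold no filled circle.

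Over all 18 lists 211 genes were measured and 31 passed (14.7%, against 1.88% of all named genes), 16 higher and 15 lower. The lists were drawn up with earlier results of these arrays known, so these shares describe the lists and are not independent evidence. In 7 lists 0 genes passed by limma, and their counts of unadjusted p under 0.05 are to be read against 19% of all probe sets tested. For cell division 16 of 17 members were below 0, with a median of -0.18 and 5 unadjusted p under 0.05, and the largest values were -0.34 for KINESIN-12B and -0.33 for HTB11 (adjusted p = 0.11 and 0.10). Among 11 floral regulators 6 had an unadjusted p under 0.05. AGL24, a MADS-box promoter of flowering, read 28.7 and 28.8 with empty vector, 60.3 and 43.8 with miR164b, and 62.3 and 55.5 with miR172a, and missed the threshold (0.67 ± 0.12, adjusted p = 0.054). AGL42 had a value of 0.58 (adjusted p = 0.055) with a line difference of -1.29.

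Of 10 meristem, boundary and organ regulators 3 had an unadjusted p under 0.05, and JAG and YAB5 had the largest values (-0.51 and 0.34, adjusted p = 0.089 and 0.13). For auxin the numbers were 2 of 13, with YUC4 at -0.48 and GH3.9 at 0.33 (adjusted p = 0.091 and 0.18). For gibberellin and brassinosteroid they were 1 of 6, with GID1C at -0.40 and BRL1 at 0.17 (adjusted p = 0.15 and 0.44). For ethylene and jasmonate they were 1 of 7, with PDF1.2b at -0.60 and MYC4 at 0.24 (adjusted p = 0.080 and 0.42). For nuclear photosynthesis genes they were 2 of 16, with PORB at -0.34 and HEME1 at -0.27 (adjusted p = 0.10 and 0.11).

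Of the genes that miR172 is known to act on, SMZ and SNZ were found among the named probe sets. CUC1 and CUC2, NAC-domain genes of organ boundaries, were not found there. Other targets of either microRNA may lie among the 8730 probe sets that are unnamed here. SMZ read 163 and 158 with empty vector, 168 and 169 with miR164b, and 171 and 177 with miR172a (0.09 ± 0.07, adjusted p = 0.56). SNZ read 126 and 107 with empty vector, 97.7 and 92.8 with miR164b, and 236 and 210 with miR172a, so its combined value of 0.30 (adjusted p = 0.18) averaged groups on opposite sides of vector. The defining markers of the apex and of neighbouring tissues were mostly not among the named probe sets. They were matched by symbol alone, and whether FDH here is the epidermal gene was not checked. CLV3 and LAS were measured for meristem and boundary, FDH for epidermis, and SPCH and MUTE for stomata. None of these 5 passed, and for leaf mesophyll, root, flower, vascular tissue and seed 0 of the chosen markers were among the named probe sets. Whether the share of cell types differed between the groups was not tested, and in whole apices fewer cells of a type and less RNA per cell cannot be told apart.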

How the data were processed

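The authors deposited 1 scaled intensity per probe set and array, on a linear scale; the labels name no software for it. Its mean without the lowest and highest 2% was 200 on every array. Of the 22746 probe sets tested (64 AFFX controls left out), 13513 paired with 1 gene, 503 with several, and 8730 were not listed in the array annotation and are unnamed here. Current symbols came from the TAIR10.1 gene table (13436 matched), and the brightest probe set stood for each of 13350 named genes.

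All 6 arrays entered 1 fit of log2(intensity + 16) on group means with limma 3.58.1 (lmFit, eBayes) in R 4.3.3, with 3 residual and 2.69 prior degrees of freedom. Contrasts were (miR164b + miR172a)/2 minus vector and miR164b minus miR172a, two-sided, adjusted by Benjamini-Hochberg over all probe sets. By rule the text names the 12 largest shared rises and falls whose arrays do not overlap, the 5 largest of each direction among the others, and up to 4 called members of a list (or 2 values where none passed). Every other gene named, such as family members, miR172 targets and further members of the dehydration and cell wall lists, was chosen after its values were seen. Members and lists were chosen with earlier results of these data known. The 18 lists hold 1310 names, of which 211 genes were measured, and 6 names were dropped because the table gives that symbol to another gene. Simulated arrays of the combined comparison had independent normal noise over 22746 probe sets, of which only 200 were changed. On them 76.0% of changes of 1 and 9.2% of changes of 0.5 in both overexpressors were recovered, 70.2% of changes of 2 in 1 of them, and 4.7% of calls were false. These shares hold for that setting and are not error rates of the real calls. Same-lettered arrays of different groups deviated with correlations of -0.011, 0.105 and 0.079, so letters were not taken as pairs. The alternatives were offsets of 1 and 64, median centring, quantile normalization, leaving out the 40% dimmest probe sets, a replicate block, 1 group of 4, a trended robust eBayes and leaving out each array. Promoter motifs were not analysed here. Figures were drawn with matplotlib 3.10.9.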

Additional observations from a re-analysis of the deposited data

Results flagged for a closer look

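The overexpressors' changes against vector were compared by the test of their difference, and the genes named here whose line difference (miR164b minus miR172a, log2) passed the threshold are collected with that value. Some of them were selected for a large line difference, so for those the value is a description.

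Toward miR164b, or less lowered there, were BCAT4 at 4.35, AT4G34950 at 2.98, GSTU20 at 2.7, AT2G23910 and AT4G33980 at 2.17, UF3GT at 1.92, DFR at 1.86, and COR27 and AT2G31790 at 1.80. Smaller values in that direction were those of XTH19 at 1.49, AT5G62210 at 1.46, UGT74B1 at 1.38, AT5G62360 at 1.3, AT5G18600 and AT4G33550 at 1.19, AT5MAT at 1.1, RR16 at 0.87, KINESIN-12B at 0.85, EXPA8 at 0.81, MCCA at 0.74, HEME1 at 0.66 and PORB at 0.65.

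Toward miR172a, or less lowered there, were WSD1 at -3.61, AT1G67865 at -3.51, AT5G48570 at -2.01, AT4G21650 at -1.56, AT1G19450 at -1.47, AGL42 and AT2G39850 at -1.29, and SNZ at -1.10. Smaller values were those of TRM24 at -0.95, AT3G45680 at -0.94, AT5G22580 at -0.80, Hsp70-2 at -0.72, bZIP58 at -0.70, HIS1-3 at -0.65, PMEPCRF at -0.61, EXPA4 at -0.56, XTH32 at -0.53 and JRG21 at -0.43. Of the 4 unnamed probe sets described under the other observations, 262128_at had a line difference of -0.48 and 258183_at of 0.83.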

How the results depend on the processing

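The count of combined calls (574) was 130 with an offset of 1, 1243 with 64, 1414 without the dimmest probe sets, 252 with the replicate block, 72 with 1 group of 4, 1309 with a trended robust prior, and between 2 and 110 with 1 array left out. Higher and lower calls were 335 and 248 with median centring and 386 and 274 with quantile normalization. The count of line differences (1623) was 683, 2707, 2979 and 2781 with the offsets of 1 and 64, the dimness filter and the trended prior, and between 102 and 1018 with 1 array left out. That of list members (31) was 16, 55, 48, 7 and 51 with the offsets of 1 and 64, the dimness filter, 1 group of 4 and the trended prior, and between 0 and 15 with 1 array left out. With the block it was 22, and 53 of 76 named calls remained. Of the 76, 0 kept their call in all 14 alternatives and 0 changed sign; 37 remained with an offset of 1 and 19 with 1 group of 4. With 1 array left out, 2 residual degrees of freedom remain and a lone array is assumed to vary like the other groups. On miR172a array 2 alone against vector, chosen after seeing the data, BCAT4, GSTU20 and UGT74B1 had values of -0.46, -0.43 and -0.21. These are near the miR172a changes of the full fit (-0.47, -0.44 and -0.20). Array 2 is itself part of those changes and read nearly the same as array 1 for these genes, so the nearness is built in. The causes of the shifts in the counts were not tested. Detection calls were not used, so dim values have no stated background.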

Other observations

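Many of the calls have no gene name here: 322 of the 574 (56.1%) belong to probe sets that the annotation does not list or gives several genes. Such probe sets were common among all 22746 tested, where 8730 were not listed and 503 had several genes. Of the 322, 50 were among the 83 shared changes larger than 1. The largest shared falls of all were in this group. Probe set 247718_at read 209 and 218 with empty vector and at most 9.50 on the microRNA arrays (-3.42 ± 0.17, adjusted p = 0.0044). Probe set 262128_at read 362 and 393 with empty vector, 18.9 and 20.3 with miR164b, and 35 and 32.3 with miR172a (-3.23 ± 0.08, adjusted p = 5.5e-04). It was 1 of only 2 probe sets, both falls, that kept their call in all 14 alternatives, with adjusted p of at most 0.023. The largest shared rises were 253191_at, from 2.90 and 16.1 to between 58.5 and 93.8 (1.87 ± 0.21, adjusted p = 0.019), and 258183_at, from 30.2 and 27.6 to between 89.9 and 191 (1.77 ± 0.09, adjusted p = 0.0045).

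Calls were spread over the nuclear chromosomes, with 1.71% to 2.11% of named genes called on each of the 5. Of 69 plastid-encoded genes 0 passed by limma and 24 had an unadjusted p under 0.05 (19% of all probe sets did), 65 were below 0, and the median combined change was -0.23, against medians of -0.03 to -0.02 on the nuclear chromosomes. The plastid medians were -0.30 with miR164b and -0.21 with miR172a. The part of the 25S rRNA values, high with empty vector and low on 3 of the 4 microRNA arrays, in that shift was not tested.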
